A study of Canis lupus familiaris with 13 samples.

Results

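Mammary tumors and a soft tissue sarcoma of companion dogs were compared gene by gene in 9 of the 13 RNA-seq libraries of the study. The members were chosen by the tumor type in the sample labels and by the time of biopsy. They comprised 6 libraries from 3 mammary tumors in 2 dogs and 3 libraries from 1 sarcoma in 1 dog, taken before treatment (day 0) or late after it. The 4 early post-treatment libraries were not used. All dogs received IMAX, a nanoparticle injected into the tumor that joins paclitaxel and a STING-activating cyclic dinucleotide on a carrier of polyethyleneimine and lithocholic acid, so the late biopsies used here came from treated masses, and no library of an untreated late tumor was compared.

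Dog CL was a 13-year-old intact female Shih Tzu with a cranial ductal and a caudal complex grade I mammary carcinoma, each biopsied at day 0 and at 1 month after the second dose. Dog BM was a 9-year-old spayed female Great Pyrenees with a solid carcinoma of the left caudal mammary gland, biopsied at day 0 and at 3 weeks after the second dose. Histology of the last BM biopsy was recorded as carcinosarcoma with features of osteosarcoma. Dog RV was a 9-year-old spayed female of mixed breed with a soft tissue sarcoma at the hock, biopsied at day 0 and at 2 weeks after the third dose at the injection site (site 1) and beside it (site 2). Because the only sarcoma grew in 1 dog, tumor type cannot be told apart from host, breed, body site or the history of that mass, and the 3 RV libraries are repeated biopsies of 1 tumor.

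Mammary carcinomas arise from a bilayered epithelium in which luminal cells, marked by simple keratins and by GATA3 and FOXA1, face the duct, and basal or myoepithelial cells, marked by KRT5, TP63 and contractile proteins, sit on the basement membrane. Epithelial cells are held together by E-cadherin, claudins and desmosomes. Soft tissue sarcomas arise from mesenchymal lineages, which generally lack these junctions and make fibrillar matrix. Canine complex and mixed mammary tumors are known for spindle-shaped myoepithelial cells and for cartilage or bone within the mass.

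Total counts ranged from 11622444 to 29931125 per library, and the cytosolic ribosomal protein genes listed here took 3.98% to 12.1% of them. Levels are given as CPM, counts relative to the library total after TMM scaling. Differences are log2 fold changes of mammary minus sarcoma with an approximate standard error (SE). This SE was back-calculated as the absolute log2 fold change over the square root of the F statistic of the edgeR test. Of 43427 gene symbols, 18693 had enough counts to be tested. Every pair of libraries differed beyond sampling noise, with a chi-square of at least 44.5 for each degree of freedom, so none was counted as a duplicate. Low levels of genes that were abundant in RV appeared in the CL libraries. A set of 21 genes, chosen after the values were seen, was over 20 CPM in RV and under 0.3 CPM in both BM libraries. For these genes the CL libraries held a median of 0.466% to 1.31% of the RV level. The BM shares of 0.212% and 0.0513% are low by this choice and are not compared with those of CL. For the 1 gene over 20 CPM in RV and under 0.3 CPM in the 4 CL libraries, BM held 0.662% and 0.75%. In the other direction, 7 genes over 20 CPM in CL and under 0.3 CPM in BM were at 1.08% to 2.28% in the RV libraries. The source of these counts was not tested, and levels near 1% of the other dog's level in CL or RV libraries are not read here as expression.

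The 3 RV libraries lay together, and so did both libraries of the CL caudal tumor. The other mammary libraries did not group by dog or by tumor. In a principal component analysis of log2 CPM, the first component held 41.4% of the variance and placed the 3 RV libraries at 125 to 151. Of the 6 mammary libraries, 5 lay between -120 and -55.9, and the BM library at 3 weeks lay at 60.6. The 3 RV libraries correlated at 0.969 to 0.972 with each other, as a description across genes that share library and depth. Both libraries of the CL caudal tumor correlated at 0.97. Mammary libraries of different dogs correlated at 0.728 to 0.902, and mammary with sarcoma libraries at 0.751 to 0.838, so the ranges overlapped. The CL cranial tumor at day 0 correlated at 0.902 with BM at day 0 and at 0.866 with its own 1-month biopsy.

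**Figure D1:**
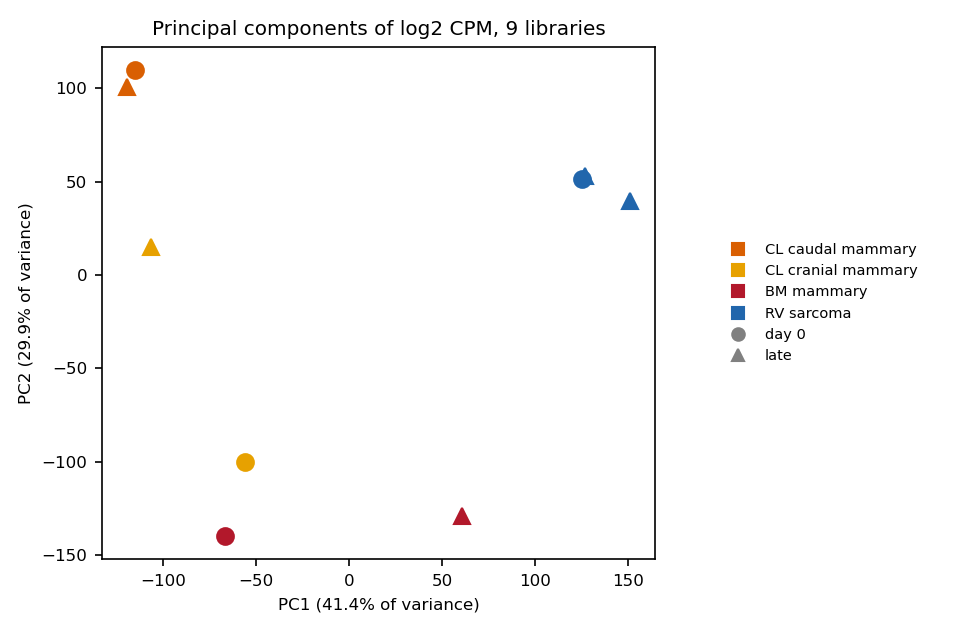
Position of the 9 libraries on the first (x axis, 41.4% of variance) and the second (y axis, 29.9%) principal component of log2 CPM, colored by tumor, with circles for day 0 and triangles for late biopsies. The RV libraries lie together at the right, and the BM library at 3 weeks lies apart from the other 5 mammary libraries.

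Across all genes, 1362 were higher in mammary tumors (7.29% of those tested) and 844 were higher in the sarcoma (4.52%) at an adjusted p under 0.05 in edgeR's quasi-likelihood test. Fold changes of at least 4 were seen for 1244 and 566 of them. In 2036 genes (10.9%) all mammary libraries lay above all sarcoma libraries, and in 1829 genes (9.78%) the reverse was true. Of 15150 protein-coding genes tested, 1183 (7.81%) were higher in mammary tumors and 646 (4.26%) in the sarcoma. Of 3051 long noncoding RNAs, 155 (5.08%) and 183 (6%) were. The median log2 fold change of all genes tested was 0.24, so values for gene lists are read against it. Scaling by total counts alone raised this median to 0.55 and moved the share of calls that were higher in mammary tumors from 61.7% to 73.9%.

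These counts treat repeated biopsies of a mass as independent. With counts summed per tumor, 3 mammary tumors against 1 sarcoma, edgeR called 0 genes (smallest adjusted p = 0.184), and 1776 genes (9.5%) had an unadjusted p under 0.05. With the tumor as a random block in limma-voom, 1 gene (0.00535%) was higher in mammary tumors and 121 genes (0.647%) were higher in the sarcoma. All 121 were also called by edgeR without overlap between the groups. With 1 sarcoma, this fit holds no measure of the spread between sarcomas, and it takes the CL cranial and caudal tumors as independent. Its calls in the sarcoma therefore do not extend to other sarcomas. Leaving out any of the 3 RV libraries reduced the calls to 158 and 305 (day 0), 148 and 298 (site 1) or 121 and 260 (site 2), in the order mammary and sarcoma. Leaving out the BM library at 3 weeks raised them to 2525 and 1520.

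The 10 genes with the highest fold changes in mammary tumors were FAM83F, COL9A1, NGFR, CCL28, CLDN8, SLITRK4, PCP4, CLDN4, PRR15L and KRT19, with log2 fold changes from 7.28 to 8.48 and adjusted p from 0.00624 to 0.0497. CLDN4 (chromosome 6, 6409111 to 6410786, in UU_Cfam_GSD_1.0), a tight junction claudin, had 25.7 and 48.4 CPM in the CL caudal tumor, 124 and 402 CPM in the CL cranial tumor, and 133 and 7.98 CPM in the BM tumor, at day 0 and late. The RV libraries had 1.04, 0.364 and 0.912 CPM, so that the groups did not overlap (log2 fold change 7.31, SE 1.39, edgeR adjusted p = 0.00952). KRT19 (chromosome 9, 21117527 to 21121798), a keratin of simple epithelia, had a lowest, median and highest mammary level of 24.6, 347 and 1435 CPM, against 2.7, 3.82 and 3.33 CPM in RV (7.28, SE 1.69, edgeR adjusted p = 0.0211). CCL28, a chemokine of mucosal and glandular epithelia, had 0.916, 19.2 and 142 CPM against 0.306, 0.121 and 0.322 CPM (7.64, SE 1.65, edgeR adjusted p = 0.016).

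Levels of several of these genes differed widely between the mammary tumors. NGFR, the low-affinity nerve growth factor receptor found on myoepithelial cells and nerves, was at 20.6 CPM in the CL cranial tumor at day 0, at 10.9 CPM in BM at day 0, and at 0.193 to 1.83 CPM in the other 4 mammary libraries. RV held 1 NGFR count in all, which gave a pooled ratio of 367 with a 95% counting interval of 65.7 to 14510. COL9A1, a cartilage collagen, was at 179 CPM in BM at day 0 and between 1.46 and 6.47 CPM in the other mammary libraries, against at most 0.245 CPM in RV. FAM83F had 16.8 and 14.6 CPM in the CL cranial tumor and 20.7 CPM in BM at day 0, but 0.153 to 1.2 CPM in the other 3 mammary libraries, and 1 count in the 3 RV libraries together. None of the 10 genes passed the threshold with the tumor as a block.

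ELOVL6 (chromosome 32, 9529507 to 9670539), a fatty acid elongase, was the only mammary gene called with the tumor as a block (log2 fold change 4.87, limma adjusted p = 0.0399) and is named after its values were seen. Its lowest, median and highest mammary levels were 21.3, 33.7 and 37.9 CPM, and the RV libraries had 1.29, 0.727 and 1.18 CPM. The BM library at 3 weeks, at 37.7 CPM, was not set apart from the others for this gene.

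**Figure D2:**
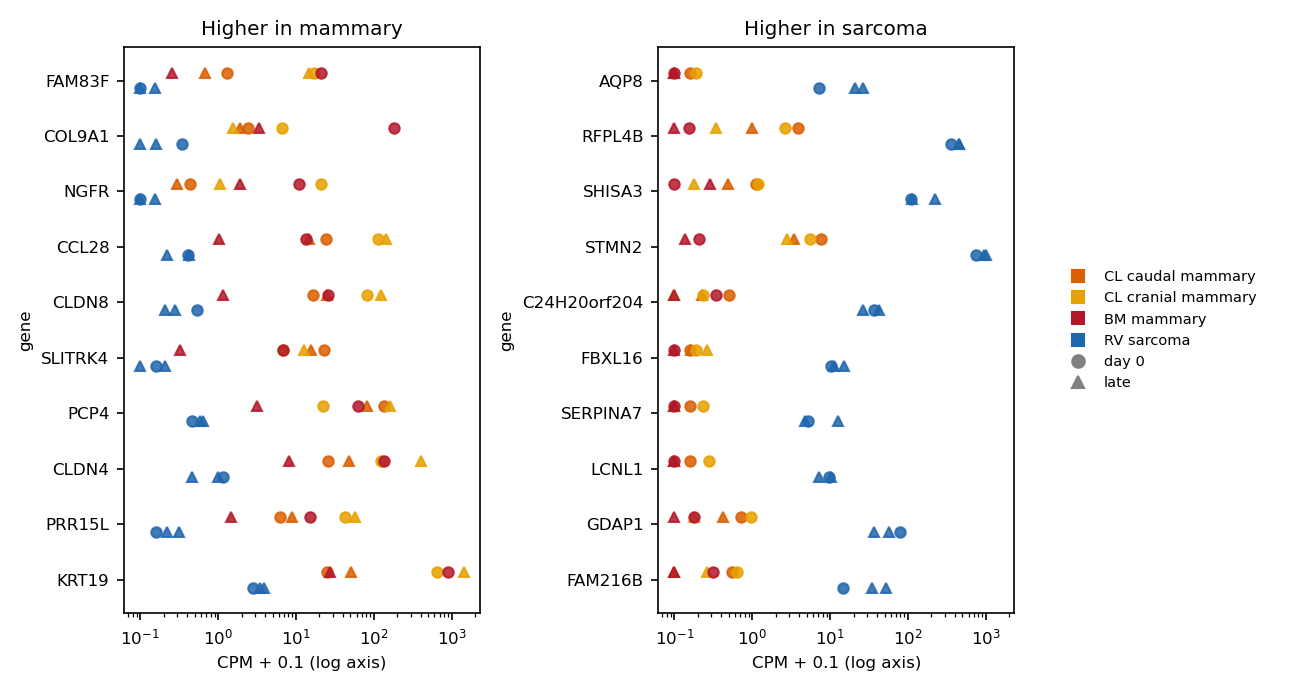
CPM + 0.1 (log axis) of the 10 named genes with the largest fold change in each direction (y axis), one point per library, colored by tumor, with circles for day 0 and triangles for late biopsies. Mammary libraries spread over more than a decade for most genes at the left, with BM at 3 weeks lowest for 7 of the 10, while the RV libraries are tightly grouped at the right.

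In bulk tissue, fewer cells of a type and less RNA per cell cannot be told apart, which holds for every list that follows. Calls in the lists are read against all genes, of which 7.29% were higher in mammary tumors and 4.52% in the sarcoma. With the tumor as a block, 0 genes of the 29 lists were called in mammary tumors, and CXCL12 and TBX18 alone were called in the sarcoma. Epithelial identity genes gave calls in mammary tumors alone. Of 35 tested, 21 were called higher in mammary tumors and 0 in the sarcoma, all 35 had a positive fold change, and the median was 5.26 against 0.24 for all genes. Without any one of the RV libraries 1 of the 35 was still called, and without BM at 3 weeks 28 were called. EPCAM (chromosome 10, 50540181 to 50553474), an adhesion molecule of most epithelia, had 47.1 and 60.4 CPM in the CL caudal tumor and 342 and 288 CPM in the CL cranial tumor. In BM it was at 446 CPM on day 0 and at 10.5 CPM at 3 weeks. RV had 1.96, 0.909 and 1.56 CPM, below every mammary library (7.07, SE 1.33, edgeR adjusted p = 0.00931).

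Other epithelial genes of the list had the same order of tumor types. CDH1, which encodes E-cadherin, had a lowest, median and highest mammary level of 23.1, 286 and 920 CPM, against 9.68, 9.03 and 9.02 CPM in RV (5.31, SE 1.07, edgeR adjusted p = 0.0122). GRHL2, a transcription factor of epithelial differentiation, had 11, 40.7 and 114 CPM against 1.1, 0.424 and 0.644 CPM (6.16, SE 0.91, edgeR adjusted p = 0.00326). ESRP1, an epithelial splicing regulator, had 1.79, 42.7 and 89.9 CPM against 0.429, 0.788 and 0.268 CPM (6.52, SE 1.39, edgeR adjusted p = 0.0154). For all of these genes the lowest mammary library was BM at 3 weeks, and the groups did not overlap.

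Junction genes followed in part. Among 15 claudins and tight junction genes, 6 were higher in mammary tumors, including CLDN3, CLDN4, CLDN7, CLDN8 and OCLN, and 1 was higher in the sarcoma (median 2.40). That gene was CGNL1, a junction-associated cingulin relative, at 283, 113 and 424 CPM in RV against 8.87 to 141 CPM in mammary libraries, and these ranges overlapped. Of 19 desmosome and hemidesmosome genes, 11 were higher in mammary tumors and 0 in the sarcoma (median 3.82). DSG2, a desmosomal cadherin, had 8.21, 104 and 229 CPM as lowest, median and highest mammary level and 1.84, 3.21 and 3.17 CPM in RV (5.37, SE 0.95, edgeR adjusted p = 0.00694). PKP3, another desmosomal plaque gene, was not called, with 0.456 to 28.6 CPM in mammary libraries against 1.23 to 2.3 CPM in RV. With an RV library left out, 0 of the tight junction genes and at most 1 of the desmosome genes were called in mammary tumors.

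Luminal genes were also higher in mammary tumors, 14 of 23 tested with 0 in the other direction and a median of 4.79. GATA3, the luminal transcription factor, had 248 and 277 CPM in the CL caudal tumor, 124 and 390 CPM in the CL cranial tumor, and 30.8 and 12.2 CPM in BM, against 4.23, 5.09 and 1.82 CPM in RV (5.60, SE 1.17, edgeR adjusted p = 0.0141). FOXA1, its partner in estrogen receptor binding, had 3.13, 10.3 and 62.4 CPM against 0.245, 0.182 and 0.376 CPM (6.36, SE 1.20, edgeR adjusted p = 0.0094). TFAP2A, a factor of surface ectoderm and neural crest, had 24.2, 49.9 and 82.2 CPM against 1.04, 0.667 and 0.59 CPM (6.05, SE 0.57, edgeR adjusted p = 0.000487). KRT7 went the other way without passing the test, at 880, 718 and 339 CPM in RV and 19.3 to 371 CPM in mammary libraries (-2.20, SE 0.86, edgeR adjusted p = 0.114). A keratin listed as luminal was thus at high levels in the sarcoma, while KRT8, KRT18 and KRT19 were at 1.4 to 8.64 CPM there. When an RV library was left out, 2 of the luminal genes were called.

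Basal and myoepithelial genes had the largest share of calls, 77.8%, with 14 of 18 tested higher in mammary tumors and 0 in the sarcoma (median 5.06). KRT5, the basal keratin, had 38.2, 347 and 1693 CPM as lowest, median and highest mammary level, against 14.2, 18.4 and 13.7 CPM in RV (5.12, SE 1.14, edgeR adjusted p = 0.0183). TP63, the basal lineage factor, had 180 and 157 CPM in the CL caudal tumor, 34.5 and 35.3 CPM in the CL cranial tumor, and 147 and 11.8 CPM in BM, against 2.08, 1.57 and 1.66 CPM (5.73, SE 1.01, edgeR adjusted p = 0.00678). The contractile genes MYLK (myosin light chain kinase), ACTG2 (enteric smooth muscle actin), CNN1 (calponin) and TPM2 (a tropomyosin) were called as well. TPM2 varied little, at 147 to 287 CPM in mammary libraries and 25.5 to 35.8 CPM in RV (2.79, SE 0.39, edgeR adjusted p = 0.00249). BM at 3 weeks had the highest TPM2 level of all. KRT14 missed the threshold (6.03, SE 1.80, edgeR adjusted p = 0.0515), with 1597 CPM in BM at day 0 and 9.41 CPM in the CL caudal tumor at day 0. With an RV library left out, 4 or 5 of these genes were called.

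Of 18 hormone and growth factor receptors tested, 6 were higher in mammary tumors and 2 in the sarcoma (median 2.02). These shares were 33.3% and 11.1%, against 7.29% and 4.52% of all genes. ESR1, the estrogen receptor, had 133 and 70.2 CPM in the CL caudal tumor, 27.1 and 83 CPM in the CL cranial tumor, and 34.9 and 14.3 CPM in BM, against 2.21, 2.42 and 1.45 CPM in RV (4.89, SE 0.81, edgeR adjusted p = 0.00521). PGR, the progesterone receptor, reached 133 CPM in the CL cranial tumor at 1 month and 2.56 to 6.37 CPM in the CL caudal and BM tumors, against 1.27 to 1.59 CPM in RV, and was not called (4.52, SE 1.55, edgeR adjusted p = 0.0779). ERBB2 was not called either (3.02, SE 1.24, edgeR adjusted p = 0.126), with 3.25 and 2.89 CPM in the CL caudal tumor, 100.3 and 9.4 CPM in the CL cranial tumor, 105 and 30.7 CPM in BM, and 2.57 to 7.94 CPM in RV. FGFR3, a fibroblast growth factor receptor, was higher in mammary tumors at 6.68 to 72.9 CPM against 0.552 to 1.45 CPM (4.24, SE 1.02, edgeR adjusted p = 0.0247). IGF1R, the insulin-like growth factor receptor, was also higher there, at 35.3 to 429 CPM against 14.6 to 23.9 CPM (3.28, SE 0.88, edgeR adjusted p = 0.0355). The 2 receptors that were higher in the sarcoma were PDGFRA, the platelet-derived growth factor receptor of mesenchymal cells, at 230, 190 and 496 CPM against 40 to 143 CPM, and FGFR2, of the same family as FGFR3, at 349, 388 and 559 CPM against 7.94 to 149 CPM. Both lost their call with the tumor as a block (limma adjusted p = 0.439 and 0.229). When an RV library was left out, 1 of the 18 was called in mammary tumors and 0 in the sarcoma.

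Milk genes were led by the CL cranial tumor. Of 11 tested, 3 were higher in mammary tumors (27.3% against 7.29% of all genes) and 0 in the sarcoma (median 5.31). LALBA, the alpha-lactalbumin gene, was at 45.3 and 207 CPM in the CL cranial tumor, at 1.03 and 5.08 CPM in the CL caudal tumor, and at 0.027 and 0 CPM in BM, against at most 0.303 CPM in RV. It was not called (8.02, SE 3.01, edgeR adjusted p = 0.0999). XDH, an enzyme needed for milk fat secretion, was called with 8.04, 13.2 and 31.9 CPM against 1.84, 3.76 and 4.78 CPM (2.20, SE 0.60, edgeR adjusted p = 0.0378). LPO, lactoperoxidase, had 272 counts over the mammary libraries and 0 in RV, at least 35.6-fold higher when 3 counts over the RV libraries are taken as the floor. The milk calls numbered 0 without the CL cranial library at 1 month, without BM at day 0 or without an RV library, 1 without the CL cranial library at day 0, and 7 without BM at 3 weeks.

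**Figure D3:**
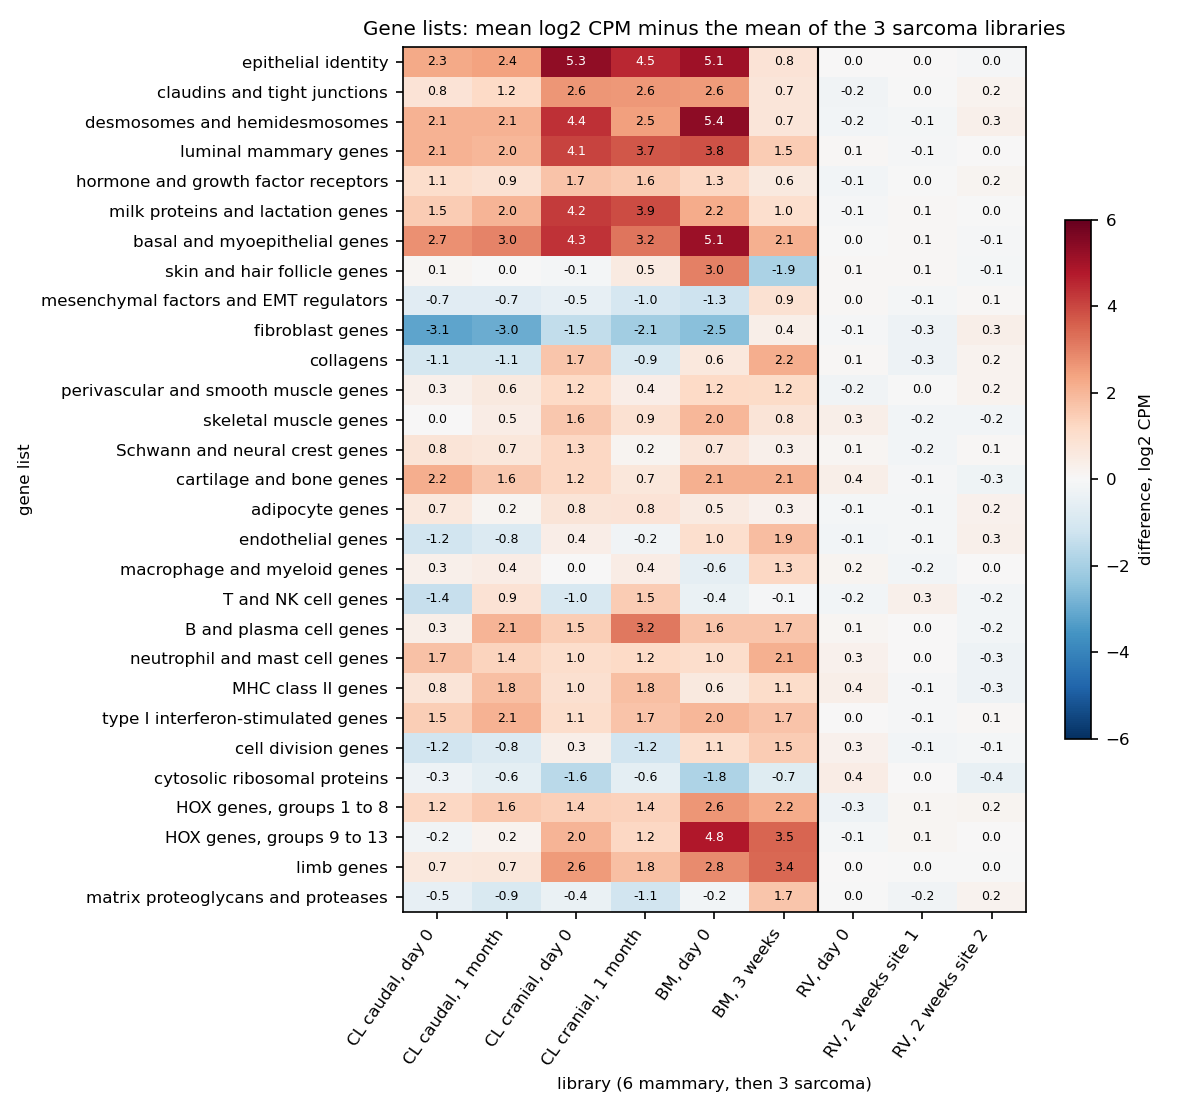
Mean log2 CPM of each of 29 gene lists (rows) in the 9 libraries (columns), minus the mean of the 3 sarcoma libraries, in color and printed in each cell. Epithelial, junction, luminal and basal lists are positive in every mammary library and least so in BM at 3 weeks, whereas fibroblast genes are negative in 5 of the 6 mammary libraries.

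Among the 29 lists, fibroblast genes gave the most calls in the sarcoma. Of 24 tested, 7 were higher in the sarcoma (29.2% against 4.52% of all genes) and 1 in mammary tumors (4.17% against 7.29%). The median was -2.15. FAP, fibroblast activation protein, had 761, 392 and 1093 CPM in RV against 8.19, 25.3 and 127 CPM as lowest, median and highest mammary level (-4.17, SE 0.74, edgeR adjusted p = 0.00698). DCN, the matrix proteoglycan decorin, had 6487, 3493 and 7852 CPM in RV against 197 to 2693 CPM (-3.08, SE 0.85, edgeR adjusted p = 0.0385). CXCL12, a stromal chemokine, had 481, 673 and 578 CPM against 40.8 to 116 CPM (-2.93, SE 0.38, edgeR adjusted p = 0.00161). With the tumor as a block CXCL12 was the only fibroblast gene still called (limma adjusted p = 0.0485). OGN, an osteoglycin proteoglycan, went the other way, at 3.65 to 184 CPM in mammary tumors and 0.848 to 1.29 CPM in RV. LUM, encoding lumican, was not called, at 368, 98.3 and 90.9 CPM in RV against 174 to 4973 CPM. With an RV library left out, 2 of the fibroblast genes were called in the sarcoma, and without BM at 3 weeks 14 were.

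The BM library at 3 weeks had both kinds of value. Its fibroblast list mean of 8.06 log2 CPM lay at the top of the RV range of 7.39 to 8.04, while its epithelial list mean of 0.89 lay above the RV range of 0.02 to 0.10. In BM at day 0 these means were 5.20 and 5.15. The 2 CL tumors stayed between 4.54 and 6.23 for fibroblast genes and between 2.33 and 5.37 for epithelial genes.

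**Figure D4:**
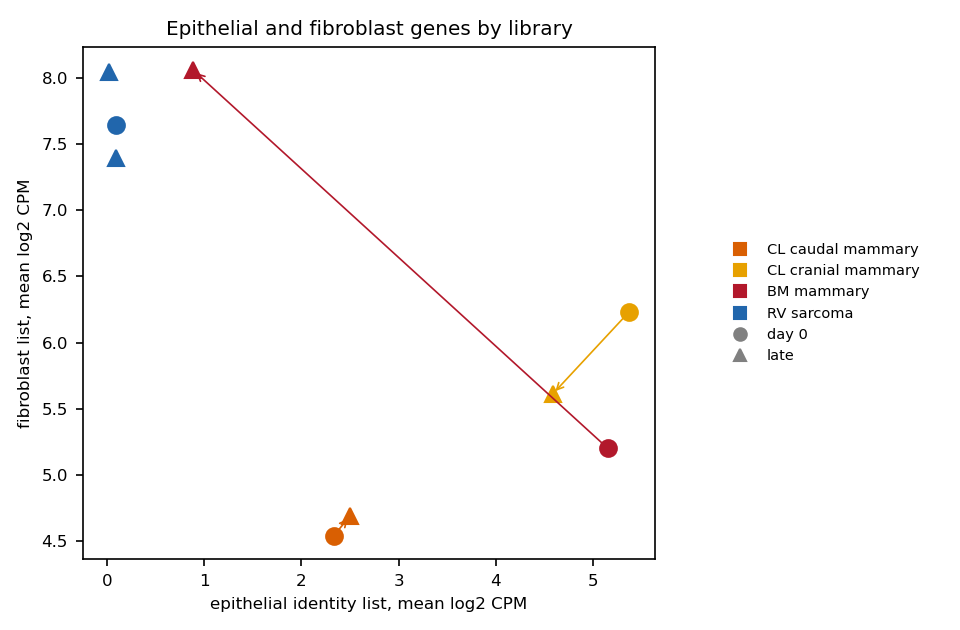
Mean log2 CPM of the epithelial identity list (x axis) and of the fibroblast list (y axis) in each library, with arrows from the day 0 to the late biopsy of each mammary tumor. BM moved from 5.15 and 5.20 to 0.89 and 8.06, next to the RV libraries in fibroblast genes but above them in epithelial genes, while the CL tumors moved less.

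Of 20 mesenchymal factors tested, 0 were higher in mammary tumors and 2 in the sarcoma (10% against 4.52% of all genes, median -0.32). These were TBX18 and TBX15, and 9 of the 20 fold changes were positive. VIM, vimentin, had 10617, 8488 and 7422 CPM in RV, 5765 and 6756 CPM in the CL caudal tumor and 8171 CPM in BM at 3 weeks (-1.10, SE 0.67, edgeR adjusted p = 0.298). PRRX1, a mesenchymal homeobox factor, had 1101, 782 and 1111 CPM in RV and 18.6 to 395 CPM in mammary libraries without overlap, but missed the threshold (-2.14, SE 0.68, edgeR adjusted p = 0.0626). CDH2 lay the other way without overlap, at 2.51 to 40.8 CPM in mammary libraries against 1.45 to 2.15 CPM in RV. It also missed the threshold (3.16, SE 0.96, edgeR adjusted p = 0.05365). ZEB1 (1.83) and TWIST2 (2.61) were positive, and ZEB2, SNAI2, TWIST1 and CDH11 negative, all with overlap and no call. Collagens gave 2 calls in mammary tumors and 1 in the sarcoma among 25, and these shares of 8% and 4% were near the 7.29% and 4.52% of all genes. COL1A1 ranged from 98.6 CPM in the CL caudal tumor at day 0 to 36483 CPM in BM at 3 weeks, around the RV values of 2234, 1162 and 2428 CPM. COL27A1, a fibrillar collagen of cartilage, was higher in mammary tumors at 32.5 to 138 CPM against 2.52 to 4.06 CPM, and COL21A1 was higher in the sarcoma at 107 to 144 CPM against 6.62 to 40.5 CPM. Matrix proteoglycans and proteases split evenly, 3 against 3 of 28 (10.7% each way), with ADAMTS5, an aggrecan-cleaving protease, at 296, 458 and 485 CPM in RV against 31 to 79.1 CPM (-2.85, SE 0.36, edgeR adjusted p = 0.00148).

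Lists of other mesenchymal lineages were read against the 7.29% of all genes called higher in mammary tumors and the 4.52% called higher in the sarcoma. The myogenic factors MYOD1 and MYOG had 0 counts in the 3 RV libraries, which allows up to 0.161 to 0.184 CPM in each. Of 16 skeletal muscle genes, 2 were higher in mammary tumors (DMD and TNNI2, 12.5%) and 0 in the sarcoma. Perivascular and smooth muscle genes gave 6 calls in mammary tumors and 0 in the sarcoma among 22 (27.3% and 0%, median 1.21), and 4 of those, ACTG2, CNN1, MYH11 and TAGLN, are also on the myoepithelial list. MYH11, smooth muscle myosin, was at 11.6 to 586 CPM in mammary libraries and at 4.13 to 4.96 CPM in RV. SOX10, a neural crest factor that mammary epithelium also expresses, was at 2.98 to 188 CPM in mammary libraries and 1.23 to 1.57 CPM in RV (5.61, SE 1.23, edgeR adjusted p = 0.017). Of 17 Schwann and neural crest genes, 4 (23.5%) were higher in mammary tumors and 2 (11.8%) in the sarcoma. The latter were MITF and DCT, of the pigment cell lineage, with MITF at 60.9, 47.3 and 68.4 CPM against 4.42 to 20.7 CPM. Adipocyte genes gave 1 call in each direction among 11 (9.09% each way). The sarcoma had more PPARG, the adipogenic nuclear receptor, at 58.5, 90.5 and 86.1 CPM against 4.2 to 19 CPM (-2.81, SE 0.54, edgeR adjusted p = 0.00973), while LPL, lipoprotein lipase, was higher in mammary tumors.

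Cartilage and bone genes were higher in mammary tumors in 5 of 24 tested (20.8% against 7.29% of all genes). None was called in the sarcoma, and the median was 4.12. SOX5 and SOX6, the chondrogenic partner factors, were highest in the CL caudal tumor, at 430 and 261 CPM and at 464 and 465 CPM, against 3.06 to 8.18 and 2.58 to 4.72 CPM in RV. ALPL, bone alkaline phosphatase, had 141 CPM in BM at 3 weeks, 64.6 CPM in the CL cranial tumor at day 0 and 4.29 to 8.56 CPM in the other 4, against 0.303 to 0.49 CPM in RV (6.46, SE 1.58, edgeR adjusted p = 0.0259). SP7, the osteoblast factor osterix, was at 22 CPM in BM at 3 weeks and at most 0.215 CPM in the other 8 libraries, too few for the test. When an RV library was left out, 0 of these genes were called.

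Genes higher in the sarcoma were ranked by fold change in the same way, so low mammary levels of the leading genes are built into the choice. The 10 leading genes were AQP8, RFPL4B, SHISA3, STMN2, C24H20orf204, FBXL16, SERPINA7, LCNL1, GDAP1 and FAM216B, with absolute log2 fold changes from 7.15 to 9.22 and adjusted p from 0.000785 to 0.00361, and all 10 were also called with the tumor as a block. STMN2 (chromosome 29, 27620016 to 27669831), a microtubule regulator of growing axons, had 755, 943 and 1016 CPM in RV, 2.67 to 7.53 CPM in the CL libraries, and 0.108 and 0.0382 CPM in BM (-8.16, SE 1.21, edgeR adjusted p = 0.00326). RFPL4B (chromosome 12, 69159891 to 69163458) had 356, 457 and 451 CPM in RV and at most 3.77 CPM in mammary libraries (-8.40, SE 1.27, edgeR adjusted p = 0.00361). AQP8 (chromosome 6, 21225638 to 21233418), a water channel, had 7.11, 26.2 and 20.7 CPM in RV and 3 counts over the 6 mammary libraries, a pooled ratio of 792 with a 95% counting interval of 270 to 3850. In the CL libraries these 10 genes were at 0.204% to 0.862% of their RV level, within or below the share of RV-abundant genes given above, and in BM at 0% to 0.346%. RFPL4B, SHISA3, STMN2, C24H20orf204, GDAP1 and FAM216B belong to that set of 21 themselves. All 10 were also ranked by fold change, so the low shares and this likeness are built in.

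Further sarcoma genes are named after their values were seen. ITGAE (chromosome 9, 47499773 to 47564748), the integrin alpha E chain, had 536, 433 and 791 CPM in RV and 10.1 to 15.6 CPM in the 6 mammary libraries (-5.56, SE 0.36, edgeR adjusted p = 4.43e-05). CD3E, a T cell receptor component, was at 3.17 to 5.94 CPM in RV and 0.628 to 12.1 CPM in mammary libraries. ROBO2 (chromosome 31, 9840219 to 11478685), an axon guidance receptor, had 557, 654 and 585 CPM in RV against 13.4 to 24.7 CPM (-4.99, SE 0.34, edgeR adjusted p = 5.52e-05). RXRG, a retinoid X receptor, had 575, 901 and 825 CPM against 1.37 to 14.2 CPM (-6.82, SE 0.66, edgeR adjusted p = 0.000524). EPHA3, an ephrin receptor, had 461, 457 and 467 CPM against 1.02 to 14.8 CPM, and GPC3, a cell surface glypican, had 570, 171 and 462 CPM against 2.29 to 13 CPM. ITGAE, ROBO2, RXRG, EPHA3 and GPC3 were all called with the tumor as a block.

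Because STMN2 was among the 10 leading sarcoma genes, 35 genes known from neurons and neuroendocrine cells were listed after the values were seen, so their counts are a description and no independent evidence. Of 30 tested, 15 were higher in the sarcoma (50% against 4.52% of all genes) and 1 in mammary tumors (3.33% against 7.29%). With the tumor as a block 11 of the 15 were called, where 0.647% of all genes were. ELAVL3, a neuronal RNA-binding protein, had 24.9, 21.2 and 14.9 CPM in RV and 0.081 to 0.285 CPM in mammary libraries (-6.72, SE 0.56, edgeR adjusted p = 0.000237). SYP, the synaptic vesicle protein synaptophysin, had 48.9, 35.7 and 50 CPM against at most 1.26 CPM, and PRPH, the intermediate filament peripherin, had 60.1, 106 and 90.6 CPM against 0.573 to 8.41 CPM. TUBB3 and ENO2, a tubulin and an enolase of neurons, were also called. Other genes of the list were not raised in RV, with NEFL at 0.107 to 0.368 CPM and RBFOX3 at 0.054 to 0.121 CPM. SYT1, a synaptic vesicle calcium sensor, was higher in mammary tumors, at 4.35 to 168 CPM against 1.13 to 2.91 CPM. Without an RV library, 13 to 15 of the list were called in the sarcoma.

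Hedgehog pathway genes, listed in the same way after the values were seen, gave 3 calls in the sarcoma and 0 in mammary tumors among 13 tested. The share in the sarcoma was 23.1%, against 4.52% of all genes. PTCH1, the hedgehog receptor and a target of the pathway, had 274, 225 and 296 CPM in RV against 9.12 to 32.4 CPM (-4.25, SE 0.46, edgeR adjusted p = 0.000841). HHIP, a hedgehog-binding inhibitor that is also a target, had 82.2, 190 and 84.3 CPM against 0.191 to 4.01 CPM (-5.80, SE 0.72, edgeR adjusted p = 0.00141). GLI1, the transcription factor induced by the pathway, had 26.9, 11.6 and 28.4 CPM against 0.386 to 7.89 CPM and missed the threshold (-3.06, SE 0.93, edgeR adjusted p = 0.0539). The ligand genes SHH and IHH had 0 counts in all 9 libraries, and DHH was at most 0.215 CPM in RV.

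Positional genes were read because the sarcoma grew at the hock and the mammary tumors on the trunk. HOX genes mark position along the body and the limb, and TBX4 and PITX1 mark the hindlimb in development. Of 38 HOX genes in the table, 11 had 0 counts in all 9 libraries and 17 were tested, and whether the counting lost reads of this family was not tested. Among groups 1 to 8, 3 of 11 were higher in mammary tumors (27.3% against 7.29% of all genes) and 0 in the sarcoma. HOXB3 had 47.2 and 55.4 CPM in the CL caudal tumor, 13.6 and 22.4 CPM in the CL cranial tumor, and 24.9 and 21.7 CPM in BM, against 1.72, 2.24 and 1.77 CPM in RV (4.01, SE 0.61, edgeR adjusted p = 0.00367). Among groups 9 to 13, 0 of 6 were called, 0 against dog CL alone and 5 against dog BM alone, all 5 higher in the mammary tumor. Those fits called 2673 and 2612 of all 18693 genes higher in mammary tumors. HOXA9 and HOXD13 reached 16.3 and 17.8 CPM in BM at day 0 against at most 0.182 and 0.061 CPM in RV. The list mean was -2.40 and -1.96 log2 CPM in the CL caudal tumor, overlapping RV at -2.31 to -2.07. In the CL cranial tumor it was -0.16 and -0.96, and in BM 2.64 and 1.29.

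Genes of limb development were lower in the sarcoma of the limb in list level. Of 13 tested, 5 were higher in mammary tumors (38.5% against 7.29% of all genes) and 0 in the sarcoma (median 4.73). Without an RV library 0 were called. TBX4 had 0 counts in the 3 RV libraries and 86 counts over the mammary libraries, at least 11.3-fold higher with 3 counts over the RV libraries as the floor, at mammary levels of 0.057 to 1.44 CPM. PITX1 had 0.184, 0.182 and 0.054 CPM in RV against 0.628 to 13.6 CPM (4.75, SE 1.33, edgeR adjusted p = 0.0413). The T-box genes TBX18 and TBX15, which pattern mesenchyme, were at the opposite end. TBX18 had 157, 284 and 252 CPM in RV against 0.997, 4.17 and 19.2 CPM as lowest, median and highest mammary level (-5.11, SE 0.74, edgeR adjusted p = 0.00303, limma adjusted p with the tumor as a block 0.0318). TBX15 had 132, 101 and 164 CPM against 1.86 to 39.2 CPM (-3.28, SE 0.89, edgeR adjusted p = 0.0377). SHOX2, a limb homeobox gene, overlapped, at 5.7 to 9.5 CPM in RV and 9.28 CPM in BM at 3 weeks.

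**Figure D5:**
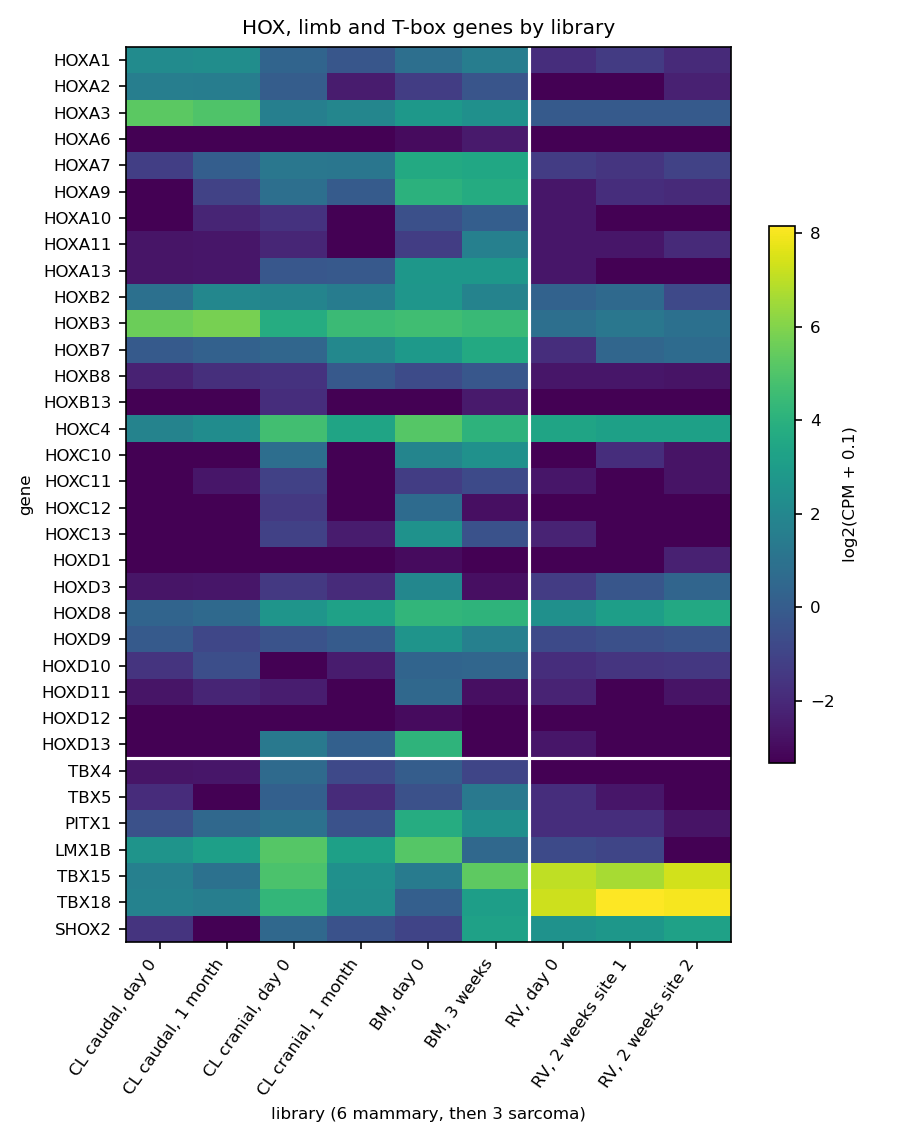
Level of HOX genes with any count, limb genes and T-box genes (rows) in the 9 libraries (columns), as log2(CPM + 0.1) in color. TBX15 and TBX18 are brightest in the RV libraries, where TBX4, PITX1 and HOX genes of groups 9 to 13 are dark. In list level the CL caudal tumor overlapped RV for groups 9 to 13.

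Among immune lists, type I interferon-stimulated genes gave the most calls. They were higher in mammary tumors in 13 of 29 tested (44.8% against 7.29% of all genes), with 0 in the sarcoma and a median of 1.95. With the tumor as a block, 0 of the 13 kept the call. DDX60, an antiviral helicase, had 37.7, 167 and 353 CPM as lowest, median and highest mammary level against 9.13, 9.21 and 8.37 CPM in RV (4.28, SE 0.71, edgeR adjusted p = 0.00526). ISG15, a ubiquitin-like interferon product, had 40.3 to 828 CPM against 18, 13.3 and 11.3 CPM (4.49, SE 1.06, edgeR adjusted p = 0.0221). At day 0 the list mean was 4.48 to 5.43 log2 CPM in the mammary tumors and 3.43 in RV. Without an RV library, 1 or 2 of these genes were called.

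B and plasma cell genes were higher in mammary tumors in 4 of 14 tested (28.6% against 7.29% of all genes). MZB1, a plasma cell chaperone, had 1.14, 7.99 and 39 CPM against 0.061, 0.242 and 0.215 CPM in RV (6.04, SE 1.34, edgeR adjusted p = 0.0181), and was highest in the CL cranial tumor at 1 month. Of 24 T and NK cell genes, 0 were called in either direction (median 0.40), and 0 of 42 cell division genes were (median 0.49). Against dog BM alone 17 of the cell division genes were called higher in the mammary tumor, and against dog CL alone 0 were. Over all 18693 genes, 2612 were called higher in the mammary tumor against dog BM alone and 2673 against dog CL alone. Of 13 MHC class II genes, 1 was higher in mammary tumors and 0 in the sarcoma. That share of 7.69% was near the 7.29% of all genes. The gene was CIITA, the master regulator of MHC class II, at 2.68 to 15.3 CPM against 0.376 to 1.66 CPM. CD74, the invariant chain, was not called. Among 23 macrophage and myeloid genes, GPNMB and ADGRE1 were higher in the sarcoma (8.7%), GPNMB at 617, 639 and 1571 CPM against 36 to 444 CPM. Of 14 neutrophil and mast cell genes, 2 (14.3%), CPA3 and HDC of mast cells, were higher in mammary tumors. Endothelial genes gave 2 calls in mammary tumors, the lymphatic genes PROX1 and CCL21, and 1 in the sarcoma, SOX18, among 22, and these shares of 9.09% and 4.55% were near those of all genes. Without an RV library, 1 of the B and plasma cell genes and 0 of the macrophage, neutrophil, MHC class II and endothelial genes were called. The part of immune or endothelial cells in the tissue gene differences was not tested.

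Of 9 skin and hair follicle genes, 1 (11.1% against 4.52% of all genes) was higher in the sarcoma, KRT25, a hair follicle keratin, at 1.78 to 3.21 CPM against at most 0.405 CPM, and KRT1 overlapped at 0.644 to 1.57 CPM in RV and 0 to 14.8 CPM in mammary libraries. Of 48 cytosolic ribosomal protein genes, 3 (6.25%) were higher in the sarcoma and 0 in mammary tumors, and all 48 fold changes were negative (median -0.82). With no scaling factor the difference in list level was -0.66 in place of -0.95, so the direction did not flip. Over the 29 lists, all mammary libraries lay above all sarcoma libraries in list level for 16, the reverse held for 0, and 13 overlapped. This tally depends on which lists were written. It leaves out the neuronal list, where all sarcoma libraries lay above all mammary libraries for 17 of 30 genes tested. Over all genes tested, the groups lay apart in 10.9% with mammary tumors above and in 9.78% with the sarcoma above.

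Few genes were silent in a whole tumor type. The lone gene with at least 10 counts in every mammary library and 0 in every RV library was the placeholder LOC102155090, at 11 to 73 counts. In the opposite direction LOC111095760 had 36, 39 and 51 counts in RV and 0 in all 6 mammary libraries.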

How the data were processed

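Strand-specific RNA-seq libraries were made from tumor biopsies. Per the paper's methods, the authors used Strand NGS for alignment to CanFam4.0. The deposited values are unnormalized read counts for each gene symbol. The counting rule and the annotation release are not given in the sources used here, so values of paralogs and overlapping genes carry that doubt. Coordinates and biotypes came from RefSeq (assembly UU_Cfam_GSD_1.0), in which 42574 (98.04%) of 43427 symbols were found.

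Genes were filtered with filterByExpr (minimum count 10), scaled by TMM and tested with edgeR 4.0.16 (estimateDisp, glmQLFit with robust estimation, glmQLFTest; R 4.3.3) over the 9 libraries with tumor type as the only term and 7 residual degrees of freedom. Benjamini-Hochberg adjustment ran over all 18693 genes, and calls have an adjusted p under 0.05. The same test on counts summed per tumor left 2 degrees of freedom. limma 3.58.1 (voom) took the tumor as a random block, with an estimated correlation of 0.484. List levels are means of log2 CPM with a prior count of 2. DESeq2 1.42.0 and other alternatives are given in the closing section. The edgeR fit over libraries was run on simulated data with independent libraries. That simulation held no correlation within a tumor and did not cover the blocked or summed fits. Figures used matplotlib 3.10.9 (Python 3.11.15).

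Gene lists were written from general knowledge and carry no test of their own. Named genes were drawn by a rule, and not every gene that qualified is printed. Genes called without overlap, with a gene name and a mean of at least 5 CPM in the higher group were ranked by fold change. The rule took the 10 largest per direction. It also took the fixed anchor genes of each list, up to 2 further called members per direction, and HOX, TBX4, TBX5 and PITX1 genes. Genes outside this rule are named as chosen after their values were seen; NEFL, RBFOX3, SYT1 and the other genes of the neuronal and hedgehog lists belong to these. The comparison and the lists were chosen with earlier results of these data known. Replicates within a mass are repeated biopsies, so p-values over libraries are too small. Intervals and floors of 3 counts describe counting error alone, as reads had no molecular identifiers to mark independent molecules.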

Additional observations from a re-analysis of the deposited data

Results flagged for a closer look

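Of 52 measures tested for a mammary library far from the other 5, 5 stood apart by Dixon's criterion (0.625 for 6 samples), where about 1 in 20, or 2.6, would be flagged by chance. The BM library at 3 weeks stood above the others in the mean level of mesenchymal factors (5.93 log2 CPM, with the next at 4.49) and of matrix proteoglycans and proteases (6.53, with the next at 4.69). COL9A1 stood out in BM at day 0 (179 CPM, next 6.47), CLDN4 in the CL cranial tumor at 1 month (402 CPM, next 133), and LCNL1 in the CL cranial tumor at day 0 (0.18 CPM, next 0.057), which is a level near that of single counts.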

How the results depend on the processing

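Counts are given as higher in mammary tumors and higher in the sarcoma, against 1362 and 844. Size factors of DESeq2, upper-quartile scaling, total counts alone, no filter and leaving out the caudal CL tumor kept both within 1.5 times. The DESeq2 Wald test called 3362 and 1398, counts summed per dog 297 and 210, counts summed per tumor 0 and 0 (1776 at an unadjusted p under 0.05), limma with tumors blocked 1 and 121, and a term for time of biopsy 898 and 638. Day 0 libraries alone gave 0 and 0 in edgeR (1697 unadjusted), with the lone sarcoma library assumed to vary like the mammary ones, and late libraries alone 0 and 13 (3168 unadjusted). Mammary tumors of dog CL alone gave 2673 and 1645, that of dog BM alone 2612 and 1408, and leaving out the cranial CL tumor 831 and 495. Leaving out 1 library at a time gave 121 to 2525 and 260 to 1520. COL12A1, not called in all 9 libraries (0.03), was called higher in the sarcoma against dog CL alone (-1.37, edgeR adjusted p = 0.0339). Genes silent in the sarcoma numbered 6 with presence at 5 counts, 0 at 20 counts and 2 with counts thinned to the smallest total, against 1; genes silent in the mammary tumors numbered 1, 1 and 3, against 1. Of 127 called genes named by the rule or after their values were seen, 127 were still called with DESeq2's size factors, 126 with the DESeq2 test, 125 against dog CL alone, 110 against dog BM alone, 24 in the blocked limma fit, and 0 for sums per tumor. Without the RV library of day 0, site 1 or site 2, 46, 45 and 41 of the 127 were still called. With late libraries alone 5 were. List calls without each library were computed after the data were seen. No paired analysis was possible because mammary tumors and sarcoma come from different dogs and the replicate numbers are only names.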
